A study of Mus musculus with 7 samples.

Results

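The receptors through which liver cells read foreign compounds, bile acid and sterol ligands and circulating hormones were examined for differences in chromatin accessibility between young and aged mouse liver. The set holds 9 genes chosen by name for their roles, with earlier results of these data known. It includes the xenobiotic sensors Nr1i2 (PXR), Nr1i3 (CAR) and Ahr, the shared partner Rxra and the oxysterol receptor Nr1h3 (LXRα). The others are Rora and the hormone receptors Nr3c1 (glucocorticoid), Thrb (thyroid hormone) and Esr1 (estrogen). All 9 are among the 28925 annotated genes that have an accessible region in their body or within 10 kb of it. Of the 55680 regions of the count table, 149 lie in or near these 9 genes, and no region belongs to more than 1 of them. The tissue was liver of C57BL/6N mice, male by the methods of the study, aged 3 months (3 young samples) or 18 months (4 aged samples). By the series record the 4 aged samples came from 3 animals, because 1 animal was sampled in 2 lobules, and the labels do not say which samples these are; the paper's appendix counts 4 aged mice. Nuclei were isolated from the tissue and tagmented by the Omni-ATAC protocol, so all cell types of the liver are pooled in each library.

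Nuclear receptors are transcription factors whose ligand-binding domain lets a small lipophilic molecule control their activity on DNA. PXR, CAR, LXR and the thyroid hormone receptor bind DNA with RXR as their partner, whereas steroid receptors act mainly as homodimers and ROR proteins act mainly as monomers. AHR is a ligand-activated factor of another family, the bHLH-PAS proteins, and pairs with ARNT. In hepatocytes these factors set the expression of enzymes and transporters for drugs, sterols and hormones.

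Accessibility is given as CPM, the count in a region relative to the library total scaled by TMM factors, and differences between ages as log2 fold changes of aged over young from an edgeR fit of all 55680 regions. A region was called more or less accessible where the p-value adjusted over all regions was under 0.05. The libraries held 10384725, 25461110 and 5709327 counts in young replicates 1 to 3, and 11717992, 5108283, 4474652 and 8397956 in aged replicates 1 to 4. Of the 149 receptor regions 7 were called (4.70%), against 5.74% of all regions. Of these, 2 were more accessible in aged liver, against a background of 2.44%, and 5 were less accessible, against 3.3%. An unadjusted p under 0.05 was reached by 30 of the 149 (20.1%), against 24.6% of all regions. In 15 regions every aged sample lay above every young one (background 10.2%) and in 18 every aged sample lay below (background 11.6%). The share of called regions was near that of the whole table, so the number of calls says nothing particular about the receptors.

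The median log2 fold change of the receptor regions was 0.028, beside −0.035 for all regions, and it turned negative (−0.095) when libraries were scaled by their total counts and without young replicate 1 (−0.027). Scaling by total counts moved the median of all regions from −0.035 to −0.15. The 15 receptor regions that lie within 200 bp of an annotated start of these genes, here called promoter regions, had a median of 0.21, beside 0.094 for all 15422 promoter regions. This median was 0.093 under total counts and −0.068 when an abundance trend was removed from each library. Among the 15, 1 was more accessible (background 4.48%) and 1 less accessible (background 2.06%), or 2 in all (background 6.54%). Every aged sample was above every young one in 6 (background 20.4%) and below in 2 (background 8.88%). The remaining 134 regions had a median of 0.0056, beside −0.091 for the 40258 others of the table.

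The direction of the receptor regions followed their accessibility, as it did in the whole table; the split used here was chosen after its values were seen. Among the 78 receptor regions above the median accessibility of all regions (mean log2 CPM 3.12), 2 were called more and 0 less accessible by edgeR, beside 4.44% and 1.40% of all regions in that range, and 69.2% had a positive fold change, beside 65.3% of all. Among the 71 at or below it, 0 were called more and 5 less accessible, beside 0.449% and 5.20% of all such regions, and 36.6% had a positive fold change, beside 27.8% of all. An unadjusted p under 0.05 was reached by 15 receptor regions above the median (19.2%, beside 27.5% of all) and by 15 at or below it (21.1%, beside 21.7%). With the abundance trend removed from each library, edgeR called 0 of the 149 in either direction, and 697 regions of the whole table (1.25%). The fold changes of the 5 regions called less accessible stayed at −0.75 or lower over all their alternatives. Those of the 2 called more accessible stayed at 0.166 or higher. DESeq2 called 6 more and 5 less accessible, and 8.42% of all regions, and limma-voom 5 and 6, and 8.23% of all. A fit with an offset for base composition called 9 and 6, and 10.1% of all.

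**Figure D1:**
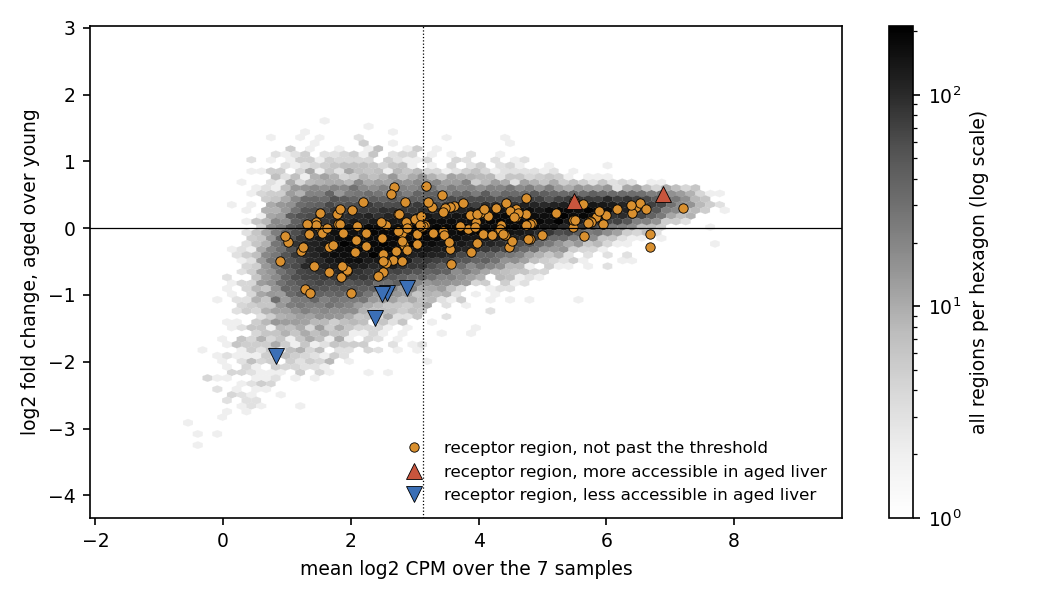
Log2 fold change (aged over young) against mean log2 CPM over the 7 samples for all 55680 regions (grey hexagons, log scale of regions per hexagon) and for the 149 receptor regions (orange, or triangles where called). The dotted line marks the median level of all regions, 3.12. The 2 receptor regions called more accessible lie to its right and the 5 called less accessible to its left, and the receptor regions stay within the cloud of all regions.

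No call among the 7 receptor regions held without each library in turn, and all 7 kept their sign in every alternative. Without young replicate 1 and without aged replicate 1, 0 of the 7 passed, with adjusted p-values from 0.0687 to 0.155 and from 0.0544 to 0.114. Of all 55680 regions, 188 and 402 passed in these fits, against 3198 with all 7 libraries. Without young replicate 2 and without aged replicate 3, 1 of 7 passed, beside 446 and 651 of all regions. Without young replicate 3, aged replicate 2 and aged replicate 4, 4, 5 and 6 of 7 passed. In these fits 2651, 2898 and 4230 of all regions passed. The p-values describe the spread between samples only, since by the series record 2 of the aged samples share an animal.

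The receptor genes differ in how open their promoters are. Each gene is represented by its promoter region with the highest mean log2 CPM, whatever the length of that region. Per kb of it, young samples averaged 44.6 CPM for Nr3c1 (SD 5.24), 44.6 for Rxra (SD 3.45), 36.5 for Thrb (SD 1.42) and 34.7 for Ahr (SD 2.03). Lower levels were found for Rora (26.8, SD 0.785), Nr1h3 (24.1, SD 1.59), Nr1i2 (21.6, SD 4.70), Nr1i3 (18.9, SD 3.52) and Esr1 (9.18, SD 2.27). The young samples of neighbours in this order overlapped for Nr3c1 and Rxra, for Thrb and Ahr, for Nr1h3 and Nr1i2 and for Nr1i2 and Nr1i3, and were separate at the other steps. The order depends on the region taken. The other Nr1h3 promoter region, shared with Acp2 and Gm13783, had 27.7 CPM per kb in young samples and 36.7 in aged samples, above the Rora means. In aged liver the means were 55.2 CPM per kb for Nr3c1, 57.9 for Rxra, 44.4 for Thrb, 37.2 for Ahr, 34.2 for Rora, 31.0 for Nr1h3, 24.4 for Nr1i2, 20.4 for Nr1i3 and 10.4 for Esr1. All 9 means were higher than in young liver, but the fold change turned negative for 5 regions (Nr1i2, Nr1i3, Ahr, Nr3c1 and Thrb) with the abundance trend removed and for 2 (Nr1i3 and Ahr) under total counts. Of these 9 regions edgeR called 0, against 6.51% of the main promoters of 13037 protein-coding genes, with an unadjusted p under 0.05 in 5, against 35.0%. DESeq2 and limma-voom called 2 (Nr1h3 and Rora), against 13.5% and 11.4%, and the base composition offset called 4 (those and Rxra and Nr3c1), against 18.7%.

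Nr1i2 encodes PXR, the sensor for drugs, bile acids and pregnane steroids that induces Cyp3a enzymes. Its most accessible region is an intron region of 3911 bp that starts 5.29 kb from the gene's start at chr16:38285628-38289538. It had 82.8, 116 and 92.2 CPM in young replicates 1 to 3, and 125, 127, 154 and 153 CPM in aged replicates 1 to 4. All aged samples exceeded all young ones, with young replicate 2 nearest to the aged group and aged replicates 3 and 4 highest. The log2 fold change was 0.52 (SE 0.14, adjusted p 0.0418). A weak region downstream of the gene, chr16:38246139-38246971, ran the other way, with 6.57, 9.75 and 9.37 CPM in young and 5.27, 3.33, 4.90 and 3.82 CPM in aged samples. Every aged sample lay below every young one, and young replicate 1 was nearest to the aged values (log2 fold change −0.97, SE 0.25, adjusted p 0.0376). The promoter region of Nr1i2, the only annotated start of the gene, did not differ beyond its spread: 40.4, 59.5 and 61.7 CPM in young and 53.9, 64.5, 66.5 and 58.4 CPM in aged samples (0.17, SE 0.15, adjusted p 0.4996).

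Both Nr1i2 calls depended on single libraries. The intron region missed the threshold without young replicate 1 (0.42, adjusted p 0.155), young replicate 2 (0.68, 0.0514), young replicate 3 (0.50, 0.0804), aged replicate 1 (0.57, 0.0753), aged replicate 3 (0.47, 0.121) or aged replicate 4 (0.48, 0.0531). Over its 23 alternatives the log2 fold change ranged from 0.17 to 0.68 and the adjusted p from 0.00832 to 0.528. The downstream region missed it without young replicate 1 (−1.12, 0.0687), young replicate 2 (−0.85, 0.151), young replicate 3 (−0.90, 0.0784), aged replicate 1 (−1.11, 0.0671), aged replicate 2 (−0.88, 0.0630) or aged replicate 3 (−1.02, 0.0835). Its fold change ranged from −1.19 to −0.77 and its adjusted p from 0.0217 to 0.151 over 23 alternatives. Of the other Nr1i2 regions, the intron region at chr16:38255553-38256550 had the highest fold change of all 149 (0.64, SE 0.27, adjusted p 0.169): it ranged from 4.54 to 9.83 CPM in young and from 8.70 to 14.7 CPM in aged samples, and the ages overlapped.

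The middle 300 bases of the called Nr1i2 intron region are printed on the + strand of GRCm38, at chr16:38287433-38287732. The motifs searched in each 300-base window, on both strands, were GCGTG (the AHR and ARNT core), AGGTCA (the receptor hexamer), its direct repeats spaced by 1 and 4 bases (AGGTCANAGGTCA and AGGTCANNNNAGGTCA), the ROR site AANTAGGTCA, and the inverted repeats GGTCANNNTGACC of the estrogen receptor and GNACANNNTGTNC of the glucocorticoid receptor. The direct repeats and the ROR site contain the hexamer, so their matches overlap it. This window holds none of the 7 motifs. Another Nr1i2 window, at chr16:38273406-38273705 on the + strand, is shown as the only receptor window with a direct repeat spaced by 1 base, the arrangement bound by RXR dimers. Its repeat is in capitals, and it was chosen for this match and after its values were seen. Such a repeat is present in 1 of 149 receptor windows (0.671%) and in 0.133% of the windows of all regions; a match is a description and not a bound site.
Nr1i2 intron, called more accessible: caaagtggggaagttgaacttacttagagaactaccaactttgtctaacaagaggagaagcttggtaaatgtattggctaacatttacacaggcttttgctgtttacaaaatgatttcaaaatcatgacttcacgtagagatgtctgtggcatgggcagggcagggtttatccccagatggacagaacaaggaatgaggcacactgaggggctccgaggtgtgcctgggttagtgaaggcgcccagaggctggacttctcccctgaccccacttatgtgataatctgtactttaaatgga
Nr1i2 intron with direct repeat: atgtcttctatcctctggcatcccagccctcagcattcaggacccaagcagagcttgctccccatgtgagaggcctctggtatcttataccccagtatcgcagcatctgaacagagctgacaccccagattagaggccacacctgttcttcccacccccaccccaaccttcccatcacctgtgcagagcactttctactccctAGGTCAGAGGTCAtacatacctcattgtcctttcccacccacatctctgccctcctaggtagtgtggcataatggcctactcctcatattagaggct

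The region around that repeat, chr16:38272822-38274290, had 11.7, 19.1 and 12.3 CPM in young and 9.31, 10.4, 10.7 and 10.1 CPM in aged samples. Every aged sample lay below every young one, but the difference was not called (log2 fold change −0.54, SE 0.20, adjusted p 0.122).

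Nr1i3 encodes CAR, which responds to phenobarbital-like inducers and controls Cyp2b enzymes, and edgeR called 0 of its 4 regions, with an unadjusted p under 0.05 in 1. DESeq2 and limma-voom also called 0, and the base composition offset called 1, the Apoa2 promoter given below. All 8 annotated transcripts start in 1 promoter region, which had 41.1, 53.8 and 60.0 CPM in young and 51.3, 58.6, 68.6 and 45.1 CPM in aged samples. The ages overlapped, and aged replicate 4 and young replicate 1 were the lowest samples (0.11, SE 0.16, adjusted p 0.712). The nearest regions downstream are promoters of the neighbours Tomm40l and Apoa2. The Tomm40l promoter, the most accessible region near Nr1i3, overlapped between ages (−0.088, SE 0.14, adjusted p 0.743), with a sign that turned without young replicate 3 (0.095). The Apoa2 promoter, chosen after its values were seen, ranged from 69.8 to 82.6 CPM in young and from 88.6 to 109 CPM in aged samples, which did not overlap (0.32, SE 0.12, adjusted p 0.108).

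Ahr encodes the receptor for dioxin-like and tryptophan-derived ligands that induces Cyp1a enzymes. Its called region lies in an intron at chr12:35517629-35519133. It had 10.5, 11.4 and 4.77 CPM in young and 3.51, 2.16, 4.202 and 4.33 CPM in aged samples. All aged samples lay below all young ones, but young replicate 3 was close to aged replicates 3 and 4 (log2 fold change −1.35, SE 0.31, adjusted p 0.0263). The call was lost without young replicate 1 (−1.23, adjusted p 0.0990), young replicate 2 (−1.12, 0.119), aged replicate 1 (−1.34, 0.0792) or aged replicate 3 (−1.41, 0.0662). Over 23 alternatives the fold change ranged from −1.60 to −1.12 and the adjusted p from 0.00661 to 0.119. Of the 10 Ahr regions, 9 had a negative fold change, beside 29751 of all 55680 regions. In 4 of the 9 every aged sample was below every young one, against 11.6% of all regions. Most Ahr regions are weak, with a median mean log2 CPM of 2.52, beside 3.12 for all regions. Of the 27840 regions at or below 3.12, 20100 had a negative fold change. Every aged sample was below every young one in 4917 of them. The only Ahr region with a positive fold change was the promoter region, with 48.7, 53.0 and 54.6 CPM in young and 55.7, 53.3, 61.4 and 53.1 CPM in aged samples. The ages overlapped there (0.10, SE 0.11, adjusted p 0.607), and its sign turned under total counts (−0.019) and with the abundance trend removed (−0.13). The most accessible Ahr region outside the promoter, an intron region at chr12:35530566-35531723, had 14.7 to 22.7 CPM in young and 12.2 to 21.7 CPM in aged samples (−0.085, SE 0.22, adjusted p 0.847; 0.13 without young replicate 3).

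Rxra encodes the partner with which PXR, CAR, LXR and the thyroid hormone receptor bind DNA, and its gene body and flanks hold 25 regions. Its called region is small, at chr2:27770281-27770508 downstream of the gene. It had 10.2, 10.4 and 9.70 CPM in young and 4.48, 6.47, 6.07 and 5.09 CPM in aged samples. The young samples lay close together and the aged ones well below them (log2 fold change −0.90, SE 0.21, adjusted p 0.0274). The call was lost without young replicate 1 (−0.89, adjusted p 0.0993), young replicate 2 (−0.87, 0.102), aged replicate 1 (−0.80, 0.0886) or aged replicate 3 (−0.94, 0.0652). Over 23 alternatives the adjusted p ranged from 0.0116 to 0.102. The first promoter region of Rxra had 85.4, 79.3 and 73.2 CPM in young and 96.3, 88.6, 99.2 and 128 CPM in aged samples. Every aged sample lay above every young one and aged replicate 4 was highest, but the difference was not called (0.38, SE 0.13, adjusted p 0.0984). A region upstream of the gene, chr2:27671451-27672314, chosen after its values were seen, was also higher in every aged sample (0.41, SE 0.12, adjusted p 0.0550), and it passed with DESeq2, limma-voom, the base composition offset, without aged replicate 2 and with aged replicates 2 and 4 summed. The 2 internal Rxra promoters overlapped between ages, with log2 fold changes of −0.28 and 0.12. The most accessible region outside a promoter, just downstream of the gene, had 108 to 132 CPM in young and 70.2 to 124 CPM in aged samples (−0.29, SE 0.17, adjusted p 0.325).

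Nr1h3 encodes LXRα, the oxysterol receptor that drives cholesterol efflux and lipogenesis, and it has 3 regions. Of its 8 transcripts, 5 start in a promoter region at chr2:91193746-91195520 and 1 noncoding transcript starts upstream of these, at the annotated start of the gene, in a region shared with the promoters of Acp2, a lysosomal phosphatase, and Gm13783. This shared region, chr2:91202032-91203414, was called. It had 36.1, 38.3 and 40.6 CPM in young and 53.0, 50.01, 51.8 and 48.4 CPM in aged samples. The groups were apart by more than their spread, and no sample stood out (log2 fold change 0.41, SE 0.11, adjusted p 0.0418). The region with most Nr1h3 starts had 43.0, 39.9 and 45.5 CPM in young and 59.7, 53.9, 54.4 and 52.1 CPM in aged samples. It showed the same separation but missed the threshold (0.37, SE 0.11, adjusted p 0.0617), and it passed with DESeq2, limma-voom and the base composition offset, with adjusted p-values from 0.0202 to 0.529 over 23 alternatives. The call of the shared region was lost without young replicate 1 (0.37, adjusted p 0.152), young replicate 2 (0.41, 0.126), aged replicate 1 (0.39, 0.114), aged replicate 2 (0.42, 0.0538) or aged replicate 3 (0.40, 0.109), and its adjusted p ranged from 0.0116 to 0.360. The region over the end of the gene, which also holds a start of the neighbour Madd, overlapped between ages (0.081, SE 0.12, adjusted p 0.713).

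RefSeq promoter sequences (250 bases before to 50 after a start, build GRCm38.p6) were found for 7 of the 9 genes, in 11 entries. That of Nr1h3 is printed beside that of Acp2, since both lie in the regions just described. The Nr1h3 entry is at chr2:91195067-91195366 on the − strand and the Acp2 entry at chr2:91202662-91202961 on the + strand. Neither holds any of the motifs searched, so nothing is in capitals, and no match says only that these letters are absent from these bases. GCGTG occurs in 3 of the 11 entries of the receptors and in 32.4% of all 32851 entries, and AGGTCA in 2 of 11 and in 16.3% of all.
Nr1h3 promoter: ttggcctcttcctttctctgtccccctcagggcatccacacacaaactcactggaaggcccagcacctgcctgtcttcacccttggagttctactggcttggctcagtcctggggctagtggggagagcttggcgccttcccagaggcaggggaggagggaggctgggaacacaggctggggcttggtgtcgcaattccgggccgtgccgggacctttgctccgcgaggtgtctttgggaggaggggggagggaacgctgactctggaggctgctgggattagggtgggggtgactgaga
Acp2 promoter: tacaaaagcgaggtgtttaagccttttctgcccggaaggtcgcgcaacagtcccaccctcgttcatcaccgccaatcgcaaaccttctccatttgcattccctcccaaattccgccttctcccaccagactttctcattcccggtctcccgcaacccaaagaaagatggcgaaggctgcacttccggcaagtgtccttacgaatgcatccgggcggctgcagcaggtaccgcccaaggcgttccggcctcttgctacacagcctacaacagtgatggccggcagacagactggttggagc

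Rora encodes RORα, a factor that binds as a monomer and takes part in the clock and in lipid metabolism, and its locus of 734 kb holds 43 regions. Its promoters differed in direction. The first promoter region, chr9:68653473-68654274, where 3 transcripts start, had 7.50, 7.14 and 9.54 CPM in young and 3.51, 4.51, 4.90 and 3.44 CPM in aged samples. All aged samples lay below all young ones (log2 fold change −0.99, SE 0.24, adjusted p 0.0315). The second, chr9:69288796-69291497, lies 636 kb downstream and holds the start of 1 coding transcript. It had 71.3, 74.9 and 71.2 CPM in young and 90.3, 99.0, 91.0 and 89.2 CPM in aged samples. Here all aged samples lay above all young ones, but the difference was not called (0.35, SE 0.10, adjusted p 0.0580), and it passed with DESeq2, limma-voom, the base composition offset and thinned counts, with adjusted p-values from 0.0173 to 0.837 over 23 alternatives. Whether the promoters' fold changes differ from each other was not tested. The first promoter's call was lost without young replicate 1 (−1.03, adjusted p 0.0934), young replicate 2 (−1.08, 0.0803), young replicate 3 (−0.86, 0.0762), aged replicate 1 (−0.92, 0.0960) or aged replicate 3 (−1.08, 0.0628), with a range of adjusted p from 0.0161 to 0.117.

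The other Rora call, an intron region at chr9:69099589-69100147, had the lowest fold change of the 149 regions. It had 4.26, 2.99 and 3.12 CPM in young and 0.879, 1.37, 0.467 and 0.891 CPM in aged samples, from 46, 79 and 19 counts in young and 10, 7, 2 and 7 counts in aged libraries. The groups were far apart relative to their spread, although the aged values rest on few counts (log2 fold change −1.91, SE 0.36, adjusted p 0.0139). The call was lost without young replicate 1 (−1.72, adjusted p 0.0718) or aged replicate 1 (−1.88, 0.0544), and over 22 alternatives the adjusted p ranged from 0.00440 to 0.0793. A second intron region with a low fold change, chr9:69369746-69370340, had 5.18, 5.44 and 6.41 CPM in young and 2.196, 4.31, 2.57 and 2.67 CPM in aged samples. Its groups did not overlap, yet it was not called (−0.97, SE 0.28, adjusted p 0.0557), and among other alternatives it passed without aged replicate 2 (−1.19, adjusted p 0.0341; range over 23 alternatives 0.0295 to 0.223). The highest fold change in Rora, at chr9:69339027-69339893, was 0.50 (SE 0.20, adjusted p 0.149), with 8.05 to 10.1 CPM in young and 9.61 to 15.6 CPM in aged samples, which overlapped. Over all 43 regions the median was 0.013, with 3 regions above and 7 below without overlap between ages. The shares over all regions of the table were 10.2% and 11.6%. The most accessible region outside a promoter had 26.3 to 33.0 CPM in young and 20.5 to 35.3 CPM in aged samples (−0.15, SE 0.17, adjusted p 0.610).

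**Figure D2:**
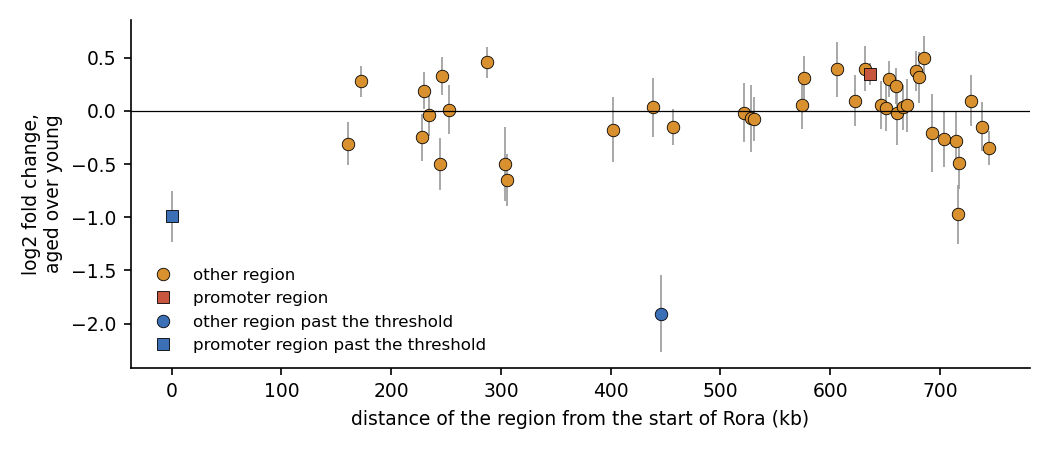
Log2 fold change (aged over young) of the 43 Rora regions by distance from the start of the gene in kb; bars are standard errors, squares are promoter regions and blue marks regions past the threshold. The first promoter lies at −0.99 and the second, 636 kb downstream, at 0.35.

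Sequences are also printed for the called Rxra region and for the first Rora promoter. The window centred on the Rxra downstream region (chr2:27770244-27770543, + strand, GRCm38) holds an alternating CA run of 52 bases and is longer than that region. None of the other 6 called windows holds a CA run over 6 bases. The RefSeq promoter of Rora (chr9:68653536-68653835, + strand, GRCm38.p6) lies in the called first promoter region and holds the AHR and ARNT core once, in capitals, read as GCGTG on the other strand. No other motif searched is present in these 2 windows.
Rxra downstream, called less accessible: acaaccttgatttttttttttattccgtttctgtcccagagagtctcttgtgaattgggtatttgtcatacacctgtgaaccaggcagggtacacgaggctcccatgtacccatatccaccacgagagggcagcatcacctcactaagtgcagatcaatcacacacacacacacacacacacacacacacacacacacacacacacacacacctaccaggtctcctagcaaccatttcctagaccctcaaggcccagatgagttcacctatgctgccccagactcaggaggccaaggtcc
Rora promoter: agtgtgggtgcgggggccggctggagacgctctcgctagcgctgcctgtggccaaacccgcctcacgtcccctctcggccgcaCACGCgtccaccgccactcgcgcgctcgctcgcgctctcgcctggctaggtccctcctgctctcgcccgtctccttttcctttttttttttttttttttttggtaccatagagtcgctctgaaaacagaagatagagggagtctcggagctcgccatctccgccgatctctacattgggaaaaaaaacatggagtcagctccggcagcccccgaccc

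Among the middle 300 bases of the 149 receptor regions, the hexamer AGGTCA was present in 43 (28.9%) and in 23.8% of all regions; outside promoters the shares were 29.9% and 27.5%. By gene it was in 5 of 8 windows of Nr1i2, 1 of 4 of Nr1i3, 5 of 10 of Ahr, 6 of 25 of Rxra, 1 of 3 of Nr1h3, 9 of 43 of Rora, 4 of 9 of Nr3c1, 8 of 33 of Thrb and 4 of 14 of Esr1. GCGTG was present in 23 (15.4%), beside 24.5% of all regions, which divide into 43.6% of promoter regions and 17.2% of the others; of the 134 receptor regions outside promoters 17 held it (12.7%). The glucocorticoid receptor repeat was in 1 window, an intron region of Thrb, beside 0.718% of all regions. The direct repeat spaced by 4, the ROR site and the estrogen receptor repeat were in 0 of the 149 windows, and in 0.0359%, 0.357% and 0.0593% of all. Of the middle windows of the 7 called regions, 1 held the hexamer and 0 held GCGTG.

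The hormone receptors had no called region in the edgeR fit. Nr3c1 encodes the glucocorticoid receptor, which mediates the fasting and stress response of the liver, and an unadjusted p under 0.05 was reached by 3 of its 9 regions. DESeq2 and limma-voom also called 0 of them, and the base composition offset, which called 10.1% of all regions, called 1, the promoter region. That region holds the starts of 6 of the 9 transcripts. It had 144, 135 and 114 CPM in young and 155, 157, 167 and 169.7 CPM in aged samples. Every aged sample lay above every young one, with young replicate 3 lowest (0.30, SE 0.11, adjusted p 0.116). All 9 Nr3c1 regions had a positive fold change, beside 46.6% of all regions. In 4 of the 9 every aged sample was above every young one, against 10.2% of all regions. With the abundance trend removed the promoter's fold change was −0.068. The intron region with the most accessibility had 22.4, 22.6 and 21.7 CPM in young and 25.1, 24.9, 24.5 and 25.5 CPM in aged samples. The groups were apart, by a small margin (0.17, SE 0.12, adjusted p 0.433). The intron region 91.3 kb from the gene's start was among the 5 regions with the highest fold changes of the set, at 0.62 (SE 0.23, adjusted p 0.108), with 4.26 to 5.26 CPM in young and 6.62 to 8.83 CPM in aged samples. Another, 35.7 kb from the start, had a fold change of 0.52 (SE 0.28, adjusted p 0.265), and the ages overlapped.

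Thrb encodes the thyroid hormone receptor β, the main form in liver. EdgeR called 0 of its 33 regions, with an unadjusted p under 0.05 in 3, and DESeq2, limma-voom and the base composition offset also called 0. The promoter region had 85.9, 86.4 and 92.1 CPM in young and 111, 105, 113 and 99.5 CPM in aged samples. All aged samples were higher than all young ones, without a call (0.28, SE 0.10, adjusted p 0.113), and with the abundance trend removed the fold change was −0.037. Its most accessible intron region had 33.1, 35.0 and 32.9 CPM in young and 39.4, 38.8, 37.4 and 42.6 CPM in aged samples. These groups were also apart (0.23, SE 0.11, adjusted p 0.215). The median of the 33 regions was 0.0047, with 2 above and 3 below without overlap, against 10.2% and 11.6% of all regions.

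Esr1 encodes the estrogen receptor α, which is expressed in hepatocytes of both sexes, and its main promoter was the least accessible of the 9 per kb. EdgeR called 0 of its 14 regions, with an unadjusted p under 0.05 in 1, and DESeq2, limma-voom and the base composition offset called 0. Its main promoter region had 11.8, 13.6 and 18.7 CPM in young and 18.8, 21.8, 14.2 and 12.1 CPM in aged samples. Aged replicates 3 and 4 lay within the young range, so the ages overlapped (0.21, SE 0.22, adjusted p 0.6002). The region with the low p, chosen after its values were seen, is a promoter 101 kb downstream where 1 noncoding transcript starts. It had 6.85, 6.39 and 8.55 CPM in young and 6.15, 4.90, 2.80 and 3.05 CPM in aged samples, with all aged samples lower (−0.72, SE 0.28, adjusted p 0.138). The most accessible intron region ranged from 21.05 to 33.3 CPM in young and from 18.2 to 37.9 CPM in aged samples (0.042, SE 0.21, adjusted p 0.927), and its sign turned in several alternatives, from −0.13 to 0.25.

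**Figure D3:**
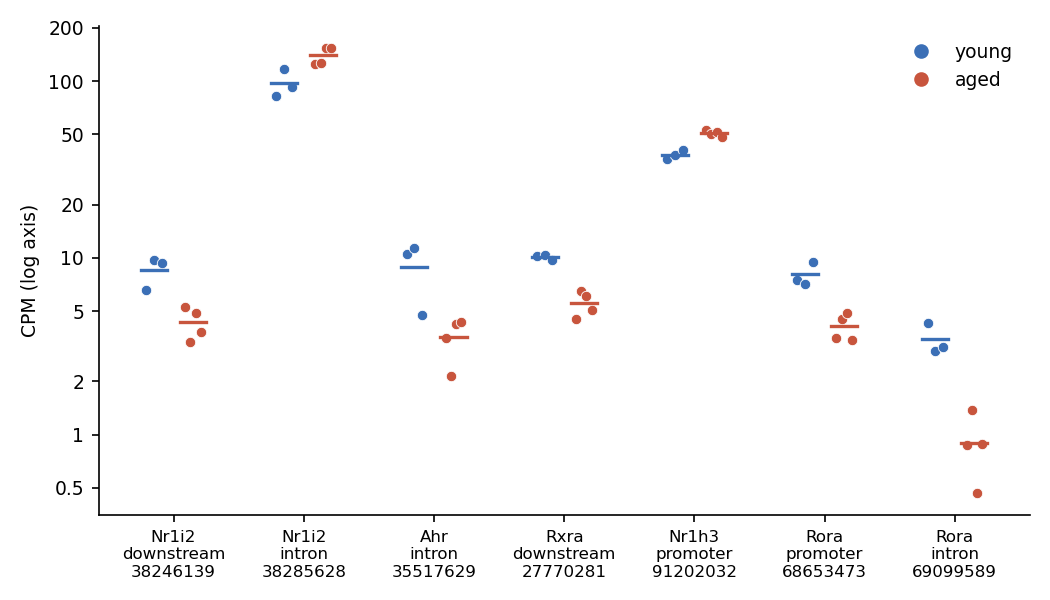
CPM (log axis) in each sample for the 7 receptor regions past the threshold, with young samples in blue, aged samples in red and a line at each group's mean; the number under each name is the start of the region. Aged samples lie above young ones in the Nr1i2 intron and the Nr1h3 promoter region, and below in the other 5, with no overlap.

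Counts were also summed over all regions of each gene and fitted by edgeR for 16231 protein-coding genes, and 0 of the 9 receptor genes were called, against 9.36% of all these genes, 6.1% more and 3.27% less accessible. An unadjusted p under 0.05 was reached by 2 of them, against 32.8% of all genes. DESeq2 called 2 (Nr3c1 and Nr1h3; 20.2% of all genes), limma-voom 1 (Nr3c1; 11.7% of all) and the base composition offset 3 (Nr1i2, Nr1h3 and Nr3c1; 24.9% of all), these receptor genes all more accessible. The summed Nr3c1 counts were 209, 207 and 188 CPM in young and 237, 243, 255 and 247 CPM in aged samples. All aged samples exceeded all young ones, and the adjusted p was just over the threshold (0.29, SE 0.082, adjusted p 0.0502). Over 25 alternatives it ranged from 0.00340 to 0.748. Nr1h3 had 130.1, 125 and 141 CPM in young and 170.4, 149.8, 159 and 157 CPM in aged samples. The groups were separate (0.27, SE 0.086, adjusted p 0.0614), and Nr1h3 passed without aged replicate 2 (0.30, adjusted p 0.0486; range over 25 alternatives 0.00901 to 0.759). That fit called 12.9% of all genes. In young samples the region with most Nr1h3 starts gave a mean of 42.8 CPM of this sum. The region that also holds a Madd start gave 50.7 CPM, and the region shared with Acp2 and Gm13783 gave 38.3 CPM. Ahr was the only gene with a negative fold change and lower sums in every aged sample, 116.3, 125 and 120.4 CPM in young and 103, 106, 115.8 and 105 CPM in aged samples. Aged replicate 3 reached almost to the lowest young sample (−0.17, SE 0.081, adjusted p 0.170). Separation above and below was found for 18.8% and 8.88% of all genes.

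The sums of the other 6 genes overlapped between ages, with log2 fold changes of 0.27 for Nr1i2, 0.11 for Nr1i3, 0.11 for Thrb, 0.095 for Rora, 0.056 for Rxra and 0.021 for Esr1, each with an adjusted p of at least 0.167. Most of the Nr1i3 sum is from the Tomm40l and Apoa2 promoters, and the Nr1i3 promoter held 19.7% of it in young samples. The median of the 9 was 0.11, beside 0.081 for all genes; 8 of 9 were above 0, beside 62.6% of all genes, a number that fell to 3 of 9 (43.6% of all) under total counts and to 6 of 9 (44.8% of all) with the abundance trend removed. Rxra varied most among aged samples, from 793 CPM in aged replicate 2 to 1311 CPM in aged replicate 4, and its fold change turned to −0.072 without aged replicate 4.

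The share of each gene's counts that fell in its promoter regions does not depend on library scaling, but a trend with abundance within a library can move it. This measure was chosen after other values were seen. For Ahr the share was 41.8, 42.5 and 45.4% in young and 54.1, 50.6, 53.0 and 50.4% in aged samples. The ages were apart by more than the spread of either, with means of 43.2 and 52.0%. For Nr1h3 it was 60.9, 62.7 and 61.1% in young and 66.1, 69.4, 66.7 and 64.0% in aged samples. Again every aged sample was higher. The Nr1h3 share includes the promoter region shared with Acp2 and Gm13783. The ages were also separate for Thrb (means of 25.1 and 28.3%), Rora (16.8 and 18.9%) and Rxra (14.9 and 16.6%). The margin was narrow for Rora, with a highest young share of 17.3% and a lowest aged share of 17.6%. It was narrower still for Rxra, at 15.62 and 15.66%. So 5 of 9 genes had a higher share in every aged sample, against 20.9% of 10530 protein-coding genes, and 0 of 9 a lower one, against 7.45%. The size of the shift was not particular to the receptors: the median difference was 1.67 percentage points over the 9 genes and 1.68 over all genes, and the mean was higher in aged liver for 6 of 9 receptors and 64.6% of all genes. Nr1i2, Nr1i3, Nr3c1 and Esr1 overlapped between ages.

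**Figure D4:**
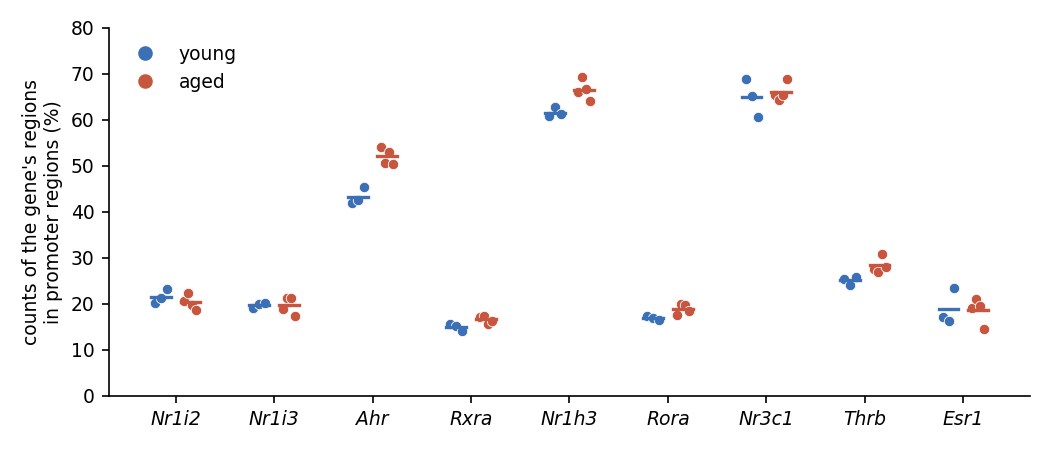
Percent of the counts in all regions of a gene that fall in its promoter regions, for each young (blue) and aged (red) sample, with a line at each group's mean. The ages do not overlap for Ahr, Rxra, Nr1h3, Rora and Thrb, and the means of Ahr are 43.2% and 52.0%.

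For each receptor, the promoter regions most like its own were sought among 11727 genes by the root mean square difference of log2 CPM over the 7 samples, after centring each on its mean. The nearest were Abcc3 and Rfc3 for Nr1i2 (0.073 and 0.084), Fgf9 and Usp40 for Nr1i3 (0.065 and 0.068), and Prrc2c and Hebp1 for Ahr (0.032 and 0.033). For Rxra they were Ercc6l and Mamdc4 (0.041 and 0.041), for Nr1h3 Zbtb24 and Txn1 (0.041 and 0.042), and for Rora Faim and Fam20c (0.028 and 0.035). For Nr3c1 they were Ndrg2 and Repin1 (0.028 and 0.029), for Thrb Serpinb6a and Tcea1 (0.0197 and 0.025), and for Esr1 Cox7c and Smim26 (0.12 and 0.12). The median difference from all compared genes lay between 0.20 for Ahr and Thrb and 0.39 for Esr1.

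The wider pathway was read from the most accessible promoter region of 107 different partners, related receptors and target genes, of which 99 have such a region and a few, such as Klf9, are on more than 1 list. Of these, 7 were called more and 1 less accessible, and the median log2 fold change was 0.23. The same counts over 13037 protein-coding genes were 655 and 194, with a median of 0.13. Of these genes 35.0% had an unadjusted p under 0.05, and DESeq2 called 13.5%, limma-voom 11.4% and the base composition offset 18.7%. Without young replicate 1, 0 of the 8 calls remained (adjusted p from 0.05997 to 0.118), without aged replicate 1, 1 (0.0485 to 0.102), without aged replicate 3, 2 (0.0396 to 0.0996), without young replicate 2, 4 (0.0344 to 0.122) and without young replicate 3, 5 (0.0264 to 0.0640). In the same order these fits called 0.184%, 0.430%, 0.614%, 0.598% and 4.45% of the 13037 main promoters, against 6.51% with all libraries. All 8 remained without aged replicate 2 (7.78% of main promoters called) or aged replicate 4 (6.92%). The 8 kept their sign in each of these fits. With the abundance trend removed 0 of 8 remained (0.591% of main promoters called), and under total counts 5 (4.64%). All 8 kept their sign under both.

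Among the 21 partners and coregulators, 1 was called more and 0 less accessible, with a median of 0.11 that turned to −0.16 with the abundance trend removed. The promoter of Arnt, the partner of AHR, had 44.9, 47.0 and 42.1 CPM in young and 63.1, 53.2, 67.2 and 64.9 CPM in aged samples. Every aged sample was higher (0.47, SE 0.11, adjusted p 0.0322; range over 23 alternatives 0.00709 to 0.256). Of the 8 listed AHR targets, 6 have a promoter region, and edgeR called 0, with an unadjusted p under 0.05 in 1, and DESeq2 and limma-voom called 0. The smallest adjusted p-values were those of Ahrr, the AHR repressor (−0.66, SE 0.28, adjusted p 0.167), and Tiparp (0.20, SE 0.10, adjusted p 0.247), and the median of the 6 was −0.17. Cyp1b1 and Aldh3a1 have no promoter region.

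Of 24 other nuclear receptors, edgeR called 0, with an unadjusted p under 0.05 in 11; DESeq2 called 4, limma-voom 1 and the base composition offset 6. The median over the list was 0.24, and −0.0042 with the abundance trend removed. The smallest adjusted p-value was that of Nr0b2, with 77.0, 75.3 and 66.1 CPM in young and 85.8, 92.6, 92.2 and 100.3 CPM in aged samples. Every aged sample was above every young one (0.35, SE 0.11, adjusted p 0.0732; range over 23 alternatives 0.0170 to 0.833). Nr1d1, a factor of the clock, had 118, 123 and 89.1 CPM in young and 136, 133, 154 and 172 CPM in aged samples. All aged samples exceeded the young ones, with young replicate 3 lowest (0.43, SE 0.14, adjusted p 0.0747; range 0.0154 to 0.769).

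Of 12 CAR and PXR targets, 11 have a promoter region (Cyp2b10 has none) and 3 were called more accessible, with a median of 0.25; with the abundance trend removed 0 were called and the median was 0.15, and without young replicate 1 they were 0 and 0.16. Cyp3a13, a drug-oxidizing enzyme, had 31.3, 32.5 and 27.6 CPM in young and 39.8, 45.5, 41.8 and 48.5 CPM in aged samples, with no overlap (0.52, SE 0.12, adjusted p 0.0277). Por, the electron donor of cytochrome P450 enzymes, went from a mean of 112 to 161 CPM (0.52, SE 0.12, adjusted p 0.0237). Gstm1, a glutathione transferase, went from 56.4 to 81.6 CPM, and its aged samples ranged from 64.9 to 99.4 CPM (0.54, SE 0.14, adjusted p 0.0361). Over their alternatives these adjusted p-values ranged from 0.00681 to 0.166, from 0.00109 to 0.493 and from 0.00878 to 0.303. The only target of this list with a negative fold change was Cyp3a11, which overlapped between ages (−0.44, SE 0.29, adjusted p 0.378).

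Of 12 LXR targets, of which Abcg5 and Abcg8 share 1 promoter region that is counted for both, 2 were called more accessible, with a median of 0.31. With the abundance trend removed 0 were called and the median was 0.036, and with the replicate block 3 were called more and 1 less accessible. The block fit called 5.64% of the 13037 main promoters. Scd1, a stearoyl-CoA desaturase, had 38.0, 45.4 and 26.5 CPM in young and 72.0, 113, 62.6 and 66.9 CPM in aged samples. Aged replicate 2 was far above the rest and young replicate 3 was lowest, without overlap (1.08, SE 0.21, adjusted p 0.0143; range over 23 alternatives 0.000107 to 0.0708). Lpcat3, a phospholipid-remodelling enzyme, went from a mean of 60.8 to 97.3 CPM (0.67, SE 0.15, adjusted p 0.0267; range 0.00294 to 0.172). All 8 ROR targets had a positive fold change, with a median of 0.46, or 7 of 8 and 0.15 with the abundance trend removed, and 1 was called. This was Nfil3, a clock output factor, with 70.8, 76.7 and 70.5 CPM in young and 104, 85.9, 112 and 111 CPM in aged samples (0.51, SE 0.12, adjusted p 0.0271; range 0.00267 to 0.322). Its aged samples were all higher, aged replicate 2 least so.

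For the hormone receptors, edgeR called 0 of 14 glucocorticoid receptor targets (median 0.24, −0.081 with the abundance trend removed), with an unadjusted p under 0.05 in 4, and DESeq2 called 1 and limma-voom 0. The base composition offset called 2 more accessible, while without aged replicate 4 and with the replicate block 2 were called less accessible. Of all main promoters these fits called 18.7%, 6.92% and 5.64%. Aged replicate 4 has no young sample of its number, so the block fit also draws no age difference from it. The smallest adjusted p-values were those of Tdo2, a tryptophan dioxygenase (0.36, SE 0.11, adjusted p 0.0617), and Tsc22d3 (0.32, SE 0.12, adjusted p 0.127). Of 6 thyroid hormone receptor targets 5 have a promoter region (Hr has none), and edgeR, DESeq2 and limma-voom called 0, with an edgeR unadjusted p under 0.05 in 0, while the replicate block called 1 more accessible. Gpd2 (0.22, SE 0.13, adjusted p 0.294) and Klf9 (0.23, SE 0.14, adjusted p 0.351) came nearest, and Klf9 turned to −0.15 with the abundance trend removed. Of 6 estrogen receptor targets only Ccnd1 and Lifr have a promoter region. Lifr was higher in every aged sample than in every young one but was not called (0.24, SE 0.13, adjusted p 0.282). Ccnd1, the cell cycle factor cyclin D1, was called less accessible, with 11.02, 6.16 and 6.41 CPM in young and 3.25, 3.14, 3.97 and 2.67 CPM in aged samples. Young replicate 1 was highest and the aged samples lay close together below all young ones (−1.29, SE 0.28, adjusted p 0.0212; range over 23 alternatives 0.00556 to 0.118).

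A change in the number of cells of a type and a change in accessibility per cell cannot be told apart in these bulk libraries. All 6 hepatocyte markers, of which Hnf4a is also among the other nuclear receptors, have a promoter region, and their summed accessibility was 544, 601 and 588 CPM in young and 693, 661, 781 and 729 CPM in aged samples. Every aged sample was higher, and Apoa1 was the most accessible and was called (0.53, SE 0.13, adjusted p 0.0331). Hnf4a was also higher in every aged sample, while Alb, Ttr, Cyp2e1 and Serpina1a overlapped between ages. Of 6 stellate cell markers 3 have a promoter region (Des, Pdgfrb and Dcn have none), and their sum was 25.8, 22.7 and 22.0 CPM in young and 20.6, 13.9, 13.1 and 17.3 CPM in aged samples. Every aged sample was lower. Most of the sum is from Reln, which was lower in every aged sample, while Lrat and Hand2 overlapped between ages. Of the Kupffer cell markers only Clec4f has a promoter region, with 2.22, 2.65 and 2.30 CPM in young and 1.41, 0.588, 2.80 and 1.53 CPM in aged samples; Adgre1, Vsig4, Csf1r, Cd5l and Marco have none.

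The endothelial sum over 4 of 6 markers was 70.8, 70.3 and 64.0 CPM in young and 54.8, 54.1, 73.5 and 88.2 CPM in aged samples, most of it from Stab2, with no promoter region for Pecam1 and Lyve1. The cholangiocyte sum over 3 of 6 was 51.2, 43.8 and 52.0 CPM in young and 45.9, 39.4, 40.2 and 56.9 CPM in aged samples, most of it from Sox9, with none for Krt19, Krt7 and Cftr. Both sums overlapped between ages, while the cholangiocyte marker Epcam was lower in every aged sample (−0.77, SE 0.29, adjusted p 0.116). The cholangiocyte markers Sox9 (−0.053) and Spp1 (0.16) overlapped between ages. None of the 6 T and B lymphocyte markers has a promoter region, and of 6 neuron and muscle markers only Syn1 has, at 7.07 to 9.35 CPM in young and 4.202 to 8.40 CPM in aged samples. The part of cell composition in the receptor results was not tested.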

How the data were processed

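ATAC-seq libraries of mouse liver from 3 young and 4 aged samples were compared. Per the labels, reads were trimmed with cutadapt 1.13 and aligned to GRCm38 with Bowtie2 2.4.1, peaks were called with MACS2 2.2.7 and reads were counted with featureCounts. The authors deposited raw counts per consensus region, 55680 regions in 7 columns, and these were used unfiltered; every column was assigned to a sample.

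Regions were annotated with GENCODE M21; a region belonged to a gene if it overlapped the gene body or 10 kb on either side, and was a promoter region if it lay within 200 bp of a transcript start. The main test was edgeR 4.0.16 (TMM, quasi-likelihood, age as the only term, Benjamini-Hochberg over all regions or all protein-coding genes) in R 4.3.3. The fit was tested on simulated data. CPM use TMM-scaled library sizes, and log2 CPM a prior count of 2. The depth of the smallest library, 4474652 counts with a median of 35 per region, limits the precision of weak regions.

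Alternatives were DESeq2 1.42.0, limma-voom (limma 3.58.1), scaling to total counts, per-library loess offsets (span 0.3) on mean abundance or on GC content, a minimum of 10 counts in every sample, filterByExpr, thinning to the smallest library, leaving out each library, adding up 2 aged libraries at a time (6 pairs), the replicate number as a block, an adjusted p threshold of 0.01, the gene body alone, region midpoints, promoter windows of 1000 bp, coding transcripts only and a prior count of 0.5.

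Named regions were, per gene, the most accessible promoter region, the most accessible other region and every called region, then the 5 highest and 5 lowest fold changes; in each pathway list the called genes or else the 2 with the smallest adjusted p; and per gene the 2 most similar promoters. In the lists 2 genes are not reported and are in none of the counts. The receptors, the lists and the motifs were chosen with earlier results of these data known. Sequences came from GRCm38 and, for promoters, from RefSeq (GRCm38.p6). Tables were handled with Python 3.11.15, pandas 2.3.3, numpy 2.4.6, pysam 0.24.0 and matplotlib 3.10.9.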

Additional observations from a re-analysis of the deposited data

How the results depend on the processing

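All 7 receptor regions that passed the threshold kept their sign in every alternative in which they were tested, but the number that passed changed. For regions more accessible in aged liver the count of 2 became 6 with DESeq2, 5 with limma-voom, 9 with GC offsets, 0 with total counts, abundance offsets, at least 10 counts in every sample or a threshold of 0.01, and from 0 to 2 without each library in turn. Of all regions tested in the same fits, DESeq2 called 8.42%, limma-voom 8.23%, GC offsets 10.1%, total counts 6.24%, abundance offsets 1.25% and at least 10 counts 2.80%, in both directions together, against 5.74% in the main fit. With pairs of aged samples summed the count was 1 (1 and 2), 0 (1 and 3), 1 (1 and 4), 0 (2 and 3), 3 (2 and 4) and 0 (3 and 4). In the same order 4.24%, 1.73%, 5.62%, 3.24%, 8.52% and 3.87% of all regions were called in both directions together. The share was 3.60% with thinned counts and from 0.338% to 7.60% without each library. For regions less accessible the count of 5 became 0 with abundance offsets and at 0.01, 2 with thinned counts, 1 with aged replicates 1 and 3 summed and 4 to 6 with the other pairs, 3 in gene bodies alone, and from 0 to 5 without each library. Receptor genes more accessible on summed counts, 0 in the main analysis, were 2 with DESeq2, 3 with GC offsets, 1 with limma-voom, 2 with aged replicates 2 and 4 summed, and 0 to 1 without each library. In the same order 20.2%, 24.9%, 11.7% and 14.9% of all protein-coding genes were called in both directions together. Without each library the share of all genes was from 0.129% to 12.9%, and 12.9% in the fit with the call. The count of less accessible receptor genes was 0 in every fit. The stricter threshold lowers counts by construction; the cause of the other changes was not tested.

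The median log2 fold change of the receptor regions was −0.095 under total counts and from −0.027 to 0.047 without each library. That of the promoter regions was 0.093 under total counts and −0.068 with abundance offsets.

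The labels give no pairing of samples by replicate number, and the main fit assumed none. Deviations of young and aged samples with the same number correlated at −0.119, 0.0565 and 0.0298. With so few samples these values do not settle whether the numbers pair samples. With the replicate block, 0 receptor regions were more and 4 less accessible, beside 7.32% of all regions called in either direction. The summed Rxra fold change in that fit was −0.088.

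For 54 regions and genes named in the text, 1259 values were computed: 1047 kept direction and side of the threshold, 139 lost a call, 31 gained it and 42 changed sign, none of these with a call. The sign changes under abundance offsets were in the promoter regions of Ahr (−0.13), Nr1i2 (−0.069), Nr1i3 (−0.12), Nr3c1 (−0.068), Thrb (−0.037), Klf9 (−0.15) and Tiparp (−0.082), in the Nr1h3 region at its end (−0.15), in the most accessible Esr1 intron region (−0.067) and in the summed counts of Nr1i3 (−0.17) and Rxra (−0.16). Under total counts they were in the promoter regions of Ahr (−0.019) and Nr1i3 (−0.0096), the Nr1h3 end region (−0.039), the Esr1 intron region (−0.0702) and the summed counts of Esr1 (−0.094), Nr1i3 (−0.0054), Rora (−0.023), Rxra (−0.069) and Thrb (−0.0083). The Esr1 intron region was also negative with limma-voom (−0.025), thinned counts (−0.077) and aged replicates 1 and 2 (−0.063) or 2 and 4 (−0.046) summed. Summed Esr1 counts were negative with at least 10 counts (−0.018), thinning (−0.042) and aged replicates 1 and 2 (−0.053) or 2 and 4 (−0.0024) summed, and summed Rxra counts with aged replicates 1 and 4 (−0.0090) or 3 and 4 (−0.0056) summed. Without each library in turn the fold change ranged from −0.13 to 0.25 for the Esr1 intron region, −0.056 to 0.10 for Esr1 sums, −0.072 to 0.16 for Rxra sums, −0.0011 to 0.23 for Nr1i3 sums, −0.027 to 0.23 for the Nr1i3 promoter, −0.23 to 0.095 for the Tomm40l promoter and −0.23 to 0.13 for the most accessible Ahr intron region.

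The spread between samples rests on 3 young samples and on 4 aged samples, by the series record from 3 animals. Weak regions have few counts: the Rora intron region with the lowest fold change had 2 to 10 counts in the aged libraries.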
